A study of Mus musculus with 13 samples.

Results

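Bone morphogenetic proteins (BMPs) are secreted growth factors of the TGF-beta superfamily. They bind pairs of type I and type II receptor kinases, which phosphorylate SMAD1, SMAD5 and SMAD9. These join SMAD4 in the nucleus and switch on targets such as the ID genes, whose products hold E proteins away from DNA, and the feedback inhibitor Smad6. In mouse embryonic stem cells (mESCs) BMP4 and the ID genes are known for holding back neural differentiation, and in the embryo BMP signals pattern the mesoderm.

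The expression of 10 genes of this pathway was followed through undirected differentiation of female mESCs, with and without a hairpin against Smarcc1. They were chosen by symbol from the 25965 genes of the expression table. Bmp2, Bmp4 and Bmp7 encode ligands. Id1, Id2, Id3 and Id4 are the ID genes. Smad6 encodes an inhibitory SMAD, and Msx1 and Msx2 encode homeobox factors that BMPs are known to induce. Of the 10 genes, 9 passed the filter on low values (log2 CPM averaging 0 or more across the differentiated libraries) and were among the 13406 genes tested. Bmp2, with a mean of -1.12, did not pass. In mm10 the ligand genes lie at chr2:133552159-133562885 (Bmp2), chr14:46383520-46390669 (Bmp4) and chr2:172868012-172940321 (Bmp7). The ID genes lie at chr2:152736251-152737410 (Id1), chr12:25093801-25096092 (Id2), chr4:136143497-136145755 (Id3) and chr13:48261427-48264036 (Id4). Smad6 lies at chr9:63953076-64022059, Msx1 at chr5:37820485-37824583 and Msx2 at chr13:53466881-53473074.

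The libraries came from F1 mESCs of FVB/NJ mothers and CAST/EiJ fathers, expanded in 2i medium and then weaned into serum medium. The sources used here do not tie the libraries to more than 1 line. The Day0 library carried no hairpin. The other 12 libraries were transduced with 1 hairpin each on day 2, selected with puromycin on day 3 and harvested on days 4, 5, 6 and 7, with 1 library per day of the nonsilencing control (Nons), Smarcc1.6 and Smarcc1.7. The 4 days therefore stood in for replicates. For knockdown and hairpins, p-values measured the spread between these libraries around the day means. For the change per day and the interaction, they measured the spread around straight lines. In the fits over time the 3 libraries of a day counted as separate, and an effect they shared cannot be told apart from time. The culture is a bulk mixture, in which fewer cells of a type and less RNA per cell cannot be told apart. Depth ran from 13993440 to 63548092 mapped reads. In Day0 and the 3 day 6 libraries 85.3% to 86.5% of reads fell in genes, against 91.6% to 92.6% in the other 9. Fold differences from Day0 are for that reason given for day 6 only. Changes over time were also taken without day 6, since day and read assignment cannot be told apart there. Smarcc1 was at a log2 CPM of 9.10, 8.87, 8.28 and 7.89 in Nons on days 4 to 7. It was at 7.42, 7.40, 7.28 and 7.28 in Smarcc1.6, and at 7.96, 7.78, 7.17 and 7.51 with Smarcc1.7. Knockdown lowered it by 1.06 ± 0.14 on the log2 scale (SE, adjusted p = 0.00232), and the hairpins lay below Nons on every day.

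The promoter windows are shown because all 4 ID genes fell in the fit over days 4 to 7, Id2 the least. SMAD proteins are also known to bind short GC-rich elements and CAGAC. RefSeq windows of 250 bases before the transcript start (GRCm38.p6) were held for 7 of the 10 genes, all but Id1, Bmp2 and Bmp7. The 3 motifs were GGCGCC and GGAGCC and also CAGAC, searched on both strands; none of them contains another. Over all 32851 promoter windows of this length, 9.59% held GGCGCC, 26.0% GGAGCC, 42.2% CAGAC and 60.9% at least 1 of them. Among the 7 genes, 6 had a match, and the window of Msx1 had none. Their windows were 61.6% (Msx2) to 75.6% (Id4) G or C, against a median of 52.4% over all windows. The matches were not compared with windows of like composition. The windows of Id3 and Msx2 lie inside annotated exons of longer isoforms and are not printed. For Id2 the 89 bases upstream of such an exon are given. Capitals mark the motif matches, on either strand.
Id2 (chr12:25096254-25096342, minus strand): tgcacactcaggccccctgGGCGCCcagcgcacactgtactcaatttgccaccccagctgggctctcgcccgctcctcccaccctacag
Id4 (chr13:48260866-48261115, plus strand): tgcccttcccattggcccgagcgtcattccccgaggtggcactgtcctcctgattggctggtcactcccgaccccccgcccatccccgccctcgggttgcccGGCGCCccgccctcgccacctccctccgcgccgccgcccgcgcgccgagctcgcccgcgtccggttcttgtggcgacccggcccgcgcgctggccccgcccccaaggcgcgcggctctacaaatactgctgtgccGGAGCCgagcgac
Smad6 (chr9:64022060-64022309, minus strand): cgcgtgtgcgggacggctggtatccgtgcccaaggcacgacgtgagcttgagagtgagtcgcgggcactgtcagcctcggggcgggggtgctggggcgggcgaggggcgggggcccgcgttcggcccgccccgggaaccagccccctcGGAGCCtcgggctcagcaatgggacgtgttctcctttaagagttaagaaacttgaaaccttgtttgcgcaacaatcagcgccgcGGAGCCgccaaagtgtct
Bmp4 (chr14:46390670-46390919, minus strand): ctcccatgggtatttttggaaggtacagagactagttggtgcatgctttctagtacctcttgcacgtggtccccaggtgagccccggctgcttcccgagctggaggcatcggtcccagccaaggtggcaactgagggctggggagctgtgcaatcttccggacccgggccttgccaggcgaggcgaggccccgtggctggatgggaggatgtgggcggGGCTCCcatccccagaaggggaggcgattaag
Msx1 (chr5:37824586-37824835, minus strand): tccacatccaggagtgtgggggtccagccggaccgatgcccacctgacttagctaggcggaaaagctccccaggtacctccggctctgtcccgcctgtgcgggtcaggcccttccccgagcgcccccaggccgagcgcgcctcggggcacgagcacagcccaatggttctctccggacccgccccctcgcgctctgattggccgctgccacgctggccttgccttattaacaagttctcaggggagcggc

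In undifferentiated cells the most abundant of the 10 transcripts was Id3. Levels were compared between genes after division by exon length, as log2 CPM per kb. On this scale the Day0 library had Id3 at 2.66, Smad6 at 1.82, Id1 at 1.80, Id4 at 1.35, Bmp7 at 1.07, Id2 at 0.50, Bmp4 at 0.42 and Msx2 at -0.28. Msx1 was at -3.79 and Bmp2 at -4.72, from 5 and 3 reads. Over days 4 to 7 the order was Id1 (mean 6.69 log2 CPM per kb over 12 libraries), Id2 (5.26), Id3 (5.19), Bmp4 (2.64), Msx1 (2.41), Smad6 (1.39), Msx2 (0.28), Bmp7 (0.07), Id4 (-1.05) and Bmp2 (-2.95). Id1 exceeded Id2 by 1.43 ± 0.75 (SD over 12 libraries) and was the higher in 11 of 12. Id3 exceeded Bmp4 by 2.55 ± 1.76. All the other neighbours in the order, such as Id2 and Id3 (0.06 ± 0.93), differed by less than 1 SD.

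Id1, Id2, Id3 and Msx1 stood far above Day0 on day 6, and Id4 far below it. Msx1 was 91.8-fold higher on the mean of the 3 day 6 libraries (6.30 to 6.66 on the log2 scale), Id1 31.0-fold (4.83 to 5.11), Id2 25.6-fold (4.53 to 4.88) and Id3 6.88-fold (2.30 to 3.27). The log2 differences of Msx1, Id1 and Id2 ranked 131, 344 and 402 from the top of 13406 genes, whose median was 0.14. Id4 lay between 2.88 and 3.43 below Day0, at rank 13222. Bmp4 was 2.60-fold higher, Bmp7 was lower by 0.69 to 1.06, Smad6 was lower by 0.49 to 0.80, and Msx2 lay between -0.10 and 0.96. There was 1 Day0 library, so these are values with no test.

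**Figure D1:**
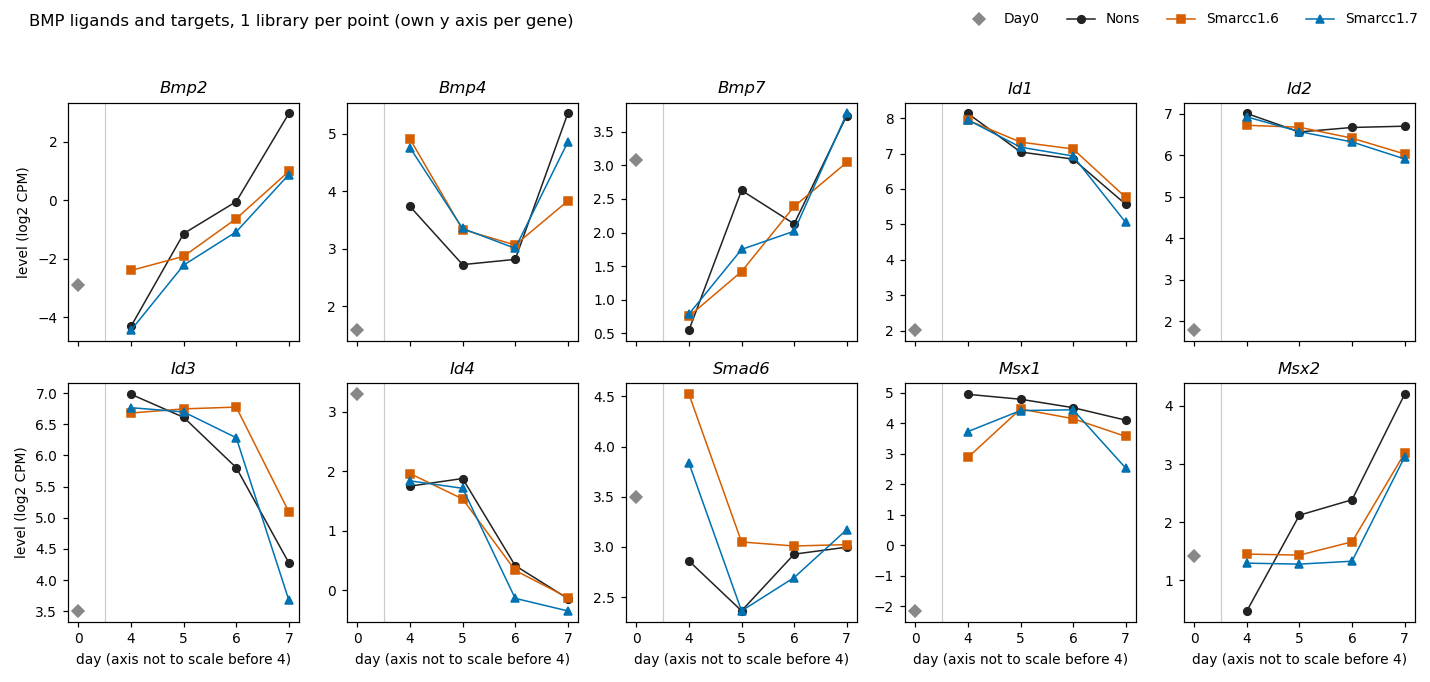
Level of each of the 10 genes (log2 CPM, own vertical axis) against day, with 1 point per library and lines joining the libraries of Nons (circles), Smarcc1.6 (squares) and Smarcc1.7 (triangles); the diamond is the single Day0 library. Id1, Id3 and Id4 were lower on day 7 than on day 4 in each of the 3 groups, whereas Bmp2, Bmp7 and Msx2 were higher.

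The ID genes fell over days 4 to 7 while the ligand Bmp7 and the target Msx2 rose. In the fit over days, 34.9% of all tested genes rose and 25.6% fell. Among the 9 genes, Bmp7 and Msx2 rose, all 4 ID genes fell, and Bmp4, Smad6 and Msx1 did not pass. The median of the 9 changes was -0.17 log2 units per day, against 0.04 over all tested genes. With day 6 left out 6 of the 9 genes were again called. In Nons libraries alone 3 of the 9 passed, Id1, Id3 and Msx2. The shares of all tested genes called at these 2 settings are not given here. The median autosomal gene was itself at a log2 CPM of 4.41 to 4.45 on day 4 and 4.65 to 4.68 on day 7, and after centring on it the 6 calls held.

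Id1 fell from 8.13 through 7.04 and 6.84 to 5.57 in Nons, from 7.94 through 7.32 and 7.13 to 5.76 with Smarcc1.6 and from 7.95 through 7.18 and 6.93 to 5.05 with Smarcc1.7. Each group came down at every step. The fitted change was -0.79 ± 0.09 log2 units per day (SE, adjusted p = 2.89e-05), or 0.580 of the level each day. Id3 was lowest on day 7 in each group. It went from 6.98, 6.61 and 5.80 to 4.28 in Nons, from 6.68, 6.75 and 6.78 to 5.09 with Smarcc1.6 and from 6.77, 6.70 and 6.28 to 3.68 with Smarcc1.7 (-0.78 ± 0.16 per day, adjusted p = 0.00138). Without day 7 the change of Id3 was -0.26 per day and no longer passed.

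Id4, the ID gene with the lowest mean level, ran 1.75, 1.88, 0.42 and -0.14 in Nons, 1.96, 1.54, 0.34 and -0.12 with Smarcc1.6 and 1.84, 1.72, -0.13 and -0.34 with Smarcc1.7 (-0.77 ± 0.10 per day, adjusted p = 0.000102). Exons of antisense transcripts overlap Id4 on the opposite strand, and whether counting used the strand is not given in the sources used here, so its reads are not assigned with certainty. Id2 had the flattest course. It ran 7.01, 6.56, 6.67 and 6.70 in Nons, 6.72, 6.68, 6.41 and 6.03 with Smarcc1.6 and 6.93, 6.57, 6.32 and 5.91 with Smarcc1.7. The change was -0.21 ± 0.05 per day (adjusted p = 0.00219), but it was -0.08 in the Nons libraries alone (adjusted p = 0.536), and it did not pass without day 4.

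Id1 gave a smaller share of the ID pool on day 7 than on day 4, and Id2 a larger one. As CPM per kb, the sum of the 4 ID genes on day 4 was 366 in Nons, 313 with Smarcc1.6 and 324 with Smarcc1.7, and Id1 gave 65.6% to 67.6% of it. On day 7 the sum was 94.6, 92.9 and 60.7, with Id1 at 43.2%, 50.3% and 47.2%. The share of Id2 was 13.8% to 15.4% on day 4, and on day 7 it was 45.1% in Nons, 28.9% with Smarcc1.6 and 40.7% with Smarcc1.7. Id4 gave at most 0.46% in all 12 differentiated libraries. In Day0 the sum was 13.8, of which Id3 gave 46.0%, Id1 25.2%, Id4 18.5% and Id2 10.3%, and on day 6 it was 172, 217 and 182, with Id4 at 0.13% to 0.20%.

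**Figure D2:**
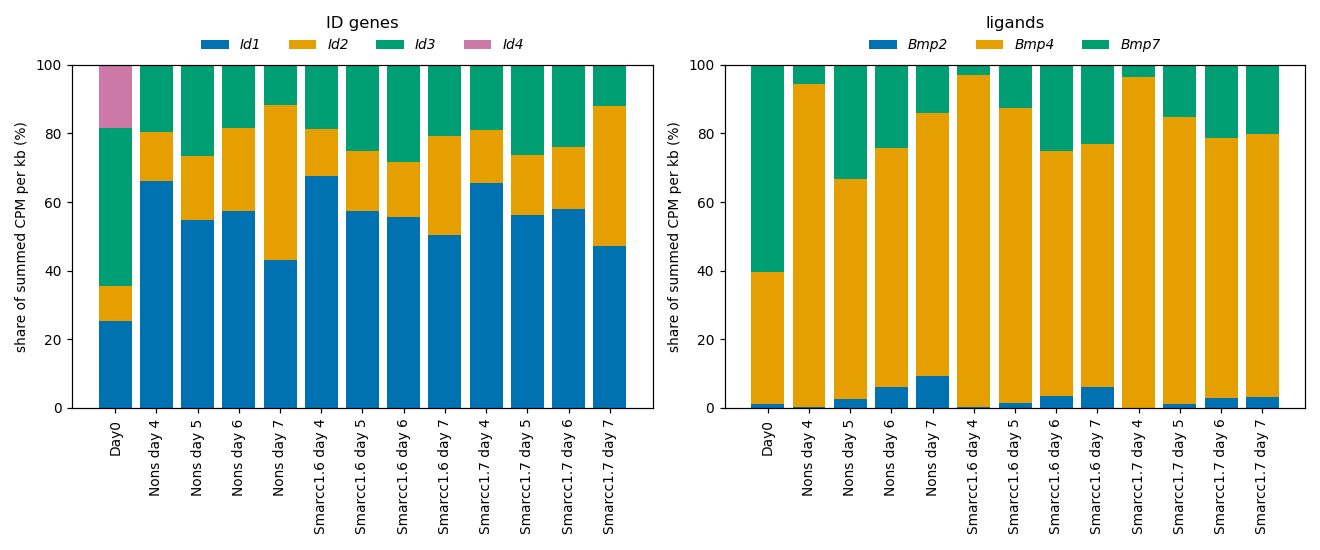
Share of each gene (percent, stacked bars from 0 to 100) in the summed CPM per kb of the 4 ID genes (left) and of the ligands Bmp2, Bmp4 and Bmp7 (right), with 1 bar per library. Id1 gave 65.6% to 67.6% of the ID sum on day 4 and 43.2% to 50.3% on day 7. Bmp4 gave 94.0% to 96.6% of the ligand sum on day 4 and 70.8% to 76.7% on day 7.

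Among the ligands, Bmp4 was the highest in every differentiated library, at 63.9% to 96.6% of the ligand sum. On day 7 it gave 76.7% in Nons, 70.8% with Smarcc1.6 and 76.6% with Smarcc1.7. Bmp7 and Bmp2 rose from day 4 to day 7 but stayed below it. In Day0 Bmp7 was at a log2 CPM of 3.08 and gave 60.4% of the ligand sum, against 38.5% for Bmp4, so its rise started from a low day 4. Bmp7 rose from 0.55 through 2.63 and 2.13 to 3.74 in Nons, from 0.75 through 1.42 and 2.39 to 3.04 with Smarcc1.6 and from 0.78 through 1.75 and 2.02 to 3.77 with Smarcc1.7 (0.87 ± 0.11 per day, adjusted p = 7.00e-05). Bmp2 had 3, 21, 34 and 231 reads in Nons, 12, 8, 24 and 116 with Smarcc1.6 and 2, 3, 15 and 93 with Smarcc1.7. With no filter on low values it rose by 1.72 log2 units per day (adjusted p = 3.17e-05), a value that depends on counts near the floor of 3 reads on day 4.

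Bmp4 followed no straight line. It was at 3.74, 2.73, 2.82 and 5.35 in Nons, at 4.91, 3.34, 3.07 and 3.83 with Smarcc1.6 and at 4.76, 3.35, 3.01 and 4.85 with Smarcc1.7. It dipped on days 5 and 6 in each group, and the straight-line change was 0.05 ± 0.24 per day (adjusted p = 0.879). Without day 4 the change was 0.77 per day and without day 7 it was -0.75, and both passed. Bmp4 shares 89 exon bases with Gm15217 on the other strand, so part of its reads is uncertain. Days were also fitted as separate levels, a choice made after seeing these courses. All 9 genes then differed between days (adjusted p from 3.01e-07 to 0.0352), as did 84.2% of all tested genes. From day 4 to day 5 Bmp4 fell by 1.33 on the log2 scale (SE 0.37, adjusted p = 0.0210), and from day 5 to day 7 it rose by 1.54 ± 0.37 (adjusted p = 0.00389).

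The step from day 4 to day 5 raised 18.9% and lowered 12.1% of tested genes. Bmp7 rose (1.24 ± 0.29), and Bmp4, Id1 (-0.82 ± 0.13) and Smad6 (-1.15 ± 0.28, adjusted p = 0.0105) fell. The step from day 5 to day 7, which leaves out day 6, raised 35.1% and lowered 30.7%. Bmp4, Bmp7 (1.59 ± 0.29) and Msx2 (1.89 ± 0.36, adjusted p = 0.000813) rose. All 4 ID genes and Msx1 fell, led by Id3 (-2.34 ± 0.26), Id4 (-1.91 ± 0.23) and Id1 (-1.72 ± 0.13). Smad6 was at 0.47 ± 0.28 and did not pass.

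Msx2 and Msx1, a pair of related homeobox genes, took different courses. Msx2 ran 0.48, 2.12, 2.39 and 4.20 in Nons, 1.45, 1.44, 1.66 and 3.19 with Smarcc1.6 and 1.30, 1.28, 1.33 and 3.12 with Smarcc1.7. It rose by 0.75 ± 0.15 per day (adjusted p = 0.00144), and without day 7 its 0.36 per day did not pass. Msx1 ran 4.95, 4.78, 4.51 and 4.10 in Nons, 2.87, 4.46, 4.15 and 3.56 with Smarcc1.6 and 3.72, 4.41, 4.44 and 2.53 with Smarcc1.7, with a change of -0.15 ± 0.16 per day (adjusted p = 0.428). Without day 4 it was at -0.58 per day and without Smarcc1.6 day 4 at -0.34, and both passed. Smad6 ran 2.86, 2.36, 2.93 and 2.998 in Nons, 4.52, 3.05, 3.01 and 3.02 with Smarcc1.6 and 3.83, 2.36, 2.70 and 3.17 with Smarcc1.7, with a change of -0.17 ± 0.14 per day (adjusted p = 0.291).

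The effect of Smarcc1 knockdown was asked within each day, with both hairpins against Nons. None of the 9 tested genes passed in this comparison (limma, 0 of 9), in which 6.88% of tested genes were higher and 4.77% lower. At an unadjusted p under 0.05 there were 2 of 9, Msx1 and Id2, against 28.1% of all tested genes. The median of the 9 differences was -0.13, against -0.01 over all tested genes. Each hairpin alone against Nons also called 0 of 9. With Smarcc1.6, 3 of 9 had an unadjusted p under 0.05, against 25.1% of all tested genes. With Smarcc1.7 it was 2 of 9, against 21.2%. Smarcc1.6 had 5.59% of tested genes higher and 3.71% lower, and Smarcc1.7 had 1.69% and 0.768%. These comparisons share the Nons libraries.

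Msx1 came nearest to the threshold. It was lower than Nons in 8 of 8 same-day comparisons, by 2.07, 0.32, 0.36 and 0.53 with Smarcc1.6 and by 1.22, 0.37, 0.07 and 1.57 with Smarcc1.7 on days 4, 5, 6 and 7. The fitted difference was -0.81 ± 0.25 (adjusted p = 0.0562), or 0.569 of the Nons level, with a 95% interval from -1.36 to -0.27. It passed with no filter on low values (adjusted p = 0.0389) and without Smarcc1.6 day 7 (adjusted p = 0.0442). Over all tested genes 7.1% were lower in all 8 comparisons and 7.89% higher in all 8. No other of the 10 genes kept 1 sign in all 8.

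Id2 was at -0.29 ± 0.10 (adjusted p = 0.0819) and was lower in 6 of 8 comparisons. Its differences were -0.28, 0.11, -0.26 and -0.67 with Smarcc1.6 and -0.08, 0.01, -0.35 and -0.79 with Smarcc1.7, so the Nons library was above both hairpins on days 4, 6 and 7 and below both on day 5. Leaving out single days or libraries moved it between -0.41 and -0.14, the latter without day 7 or without Nons day 7, and it passed in 1 of 16 such fits, without Nons day 5 (adjusted p = 0.0428). Id1 was at 0.01 ± 0.12, with a 95% interval from -0.24 to 0.27, so that a difference of over 0.27 either way lay outside it. Id3 was at 0.17 ± 0.22 and Id4 at -0.13 ± 0.17. On day 7 Id1 and Id3 were above Nons with Smarcc1.6 (0.20 and 0.82) and below it with Smarcc1.7 (-0.51 and -0.60). In the comparison of the hairpins with each other 0% of tested genes were called (0 genes by limma, and 530 at an unadjusted p under 0.05). Id1 was at 0.26 ± 0.12 there (adjusted p = 0.989).

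Bmp4 and Msx2 were above Nons with both hairpins on day 4 and below it with both on day 7. Of all tested genes 14.1% had this pattern, which was counted after these values were seen. Bmp4 differed from Nons by 1.17, 0.61, 0.25 and -1.52 with Smarcc1.6 and by 1.02, 0.63, 0.19 and -0.50 with Smarcc1.7. It was above on days 4, 5 and 6 and below on day 7. Over the 4 days the mean difference was 0.23 ± 0.27 (adjusted p = 0.625). Without day 7 it was 0.65 and passed (adjusted p = 0.0231). Msx2 differed by 0.98, -0.69, -0.72 and -1.01 with Smarcc1.6 and by 0.82, -0.84, -1.05 and -1.08 with Smarcc1.7, above on day 4 and below on each later day. The mean was -0.45 ± 0.26 (adjusted p = 0.286), and without day 4 it was -0.90 and passed (adjusted p = 0.00564), as it did without the Nons day 4 library alone (adjusted p = 0.00266). That library had 83 reads of Msx2.

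**Figure D3:**
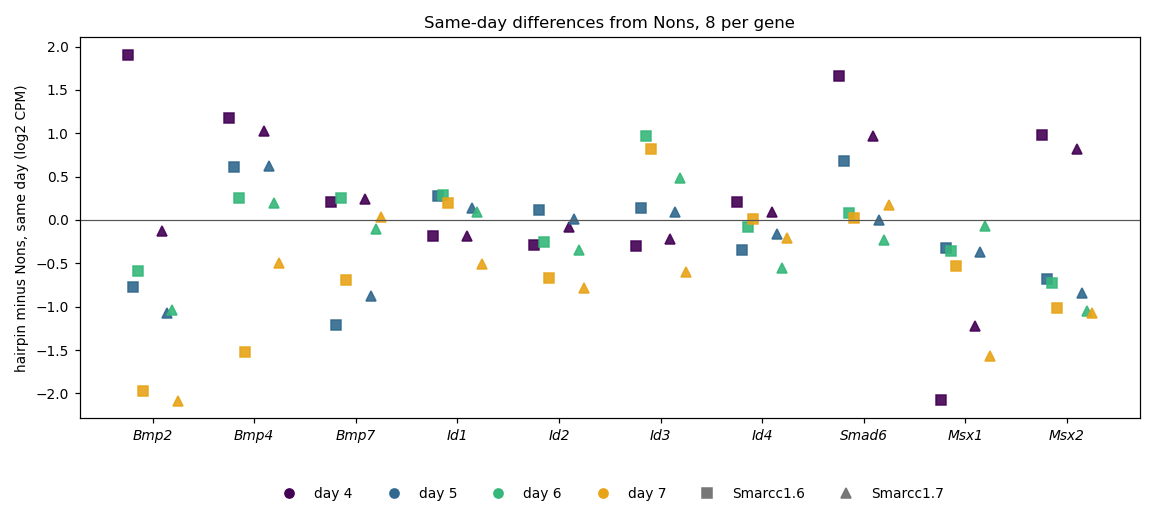
Hairpin minus Nons on the same day (log2 CPM) for each of the 10 genes, with squares for Smarcc1.6, triangles for Smarcc1.7 and colours for the day. The 8 points of Msx1 lie below 0, and the day 4 points of Bmp4 and Msx2 lie above 0 with their day 7 points below it.

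The interaction of knockdown with day tested whether the difference from Nons changed along a straight line over the 4 days, not the day 4 and day 7 differences themselves. Day entered this fit as a number, so a curved course common to the groups, as for Bmp4, stayed in the error. The lack of calls therefore does not show that the differences were constant over days. By limma 0% of tested genes passed (0 genes, and 745 or 5.56% at an unadjusted p under 0.05). Msx2 was at -0.59 ± 0.26 log2 units per day (adjusted p = 0.894) and Id2 at -0.20 ± 0.08 (adjusted p = 0.817), the genes with an unadjusted p under 0.05 among the 9. Bmp4 was at -0.67 ± 0.47, with a 95% interval from -1.72 to 0.37.

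Smad6 was above Nons by 1.66 and 0.97 on day 4 and by 0.69 and -0.001 on day 5, with Smarcc1.6 and Smarcc1.7 in turn. On days 6 and 7 the differences lay between -0.23 and 0.17. The fit gave 0.42 ± 0.22 (adjusted p = 0.240). Bmp7 was at -0.27 ± 0.21 (adjusted p = 0.442), with 4 of 8 comparisons below Nons. Bmp2 was below Nons in 7 of 8 comparisons and by 1.98 and 2.09 on day 7, where Nons had 231 reads, but with no filter its mean difference of -0.72 did not pass (adjusted p = 0.4997).

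Markers of other states moved with the knockdown. Of 9 pluripotency genes 6 were higher and none lower (limma, against 6.88% higher over all tested genes), and 7 of 9 had an unadjusted p under 0.05, against 28.1%. Their summed level on day 4 was 1601 CPM in Nons, 2687 with Smarcc1.6 and 2247 with Smarcc1.7, and over days 4 to 7 it ranged from 1099 to 1737, 1353 to 2687 and 1090 to 2247. The sums were closer later, at 1737, 1719 and 1846 on day 6 and 1099, 1353 and 1090 on day 7. Pou5f1 had 58438 reads in Nons on day 4, against 13065 of Sox2, the next. No gene of this list was at 0 in all libraries of a group, but Nr0b1 had 0 reads in Nons on day 7. Of 7 primitive streak and mesoderm genes 4 were tested and all 4, T, Eomes, Fgf8 and Wnt3, were lower. Their list summed to 53.3, 58.0, 176 and 496 CPM in Nons on days 4 to 7, against 32.8 to 119 with Smarcc1.6 and 33.9 to 65.9 with Smarcc1.7. The summed fibroblast and smooth muscle genes went from 25.01 to 1038 CPM in Nons between days 4 and 7, from 36.0 to 1403 with Smarcc1.6 and from 36.9 to 1338 with Smarcc1.7, and trophoblast genes from 40.1 to 1548, 78.4 to 1428 and 55.6 to 1295. Single genes dominated both sums. In Nons on day 7 Krt18 had 39492 reads and Krt7 5197, against 1051 of Tfap2c, 165 of Cdx2 and 17 of Elf5. Tagln had 23011, against 3714 of Acta2 and 67 of Thy1. Over days 5 of 6 fibroblast and smooth muscle genes rose and 1 fell, against 34.9% and 25.6% of all tested genes. Endothelial genes summed to 54.9, 93.9 and 72.9 CPM on day 4 and to 19.1, 15.9 and 14.6 on day 7. Pecam1, which had 5007 reads in undifferentiated Day0 cells, gave most of the day 4 sum. On day 7 Kdr had 414 reads in Nons, 87 with Smarcc1.6 and 31 with Smarcc1.7, whereas Pecam1 had 69, 616 and 478. Neuroectoderm genes summed to 62.4 to 279 CPM in Nons and 45.0 to 275 in the hairpin libraries. Both hairpins lay below Nons on days 4 to 6 and above it on day 7 (173 CPM in Nons, 275 with Smarcc1.6 and 222 with Smarcc1.7). Nes had the most reads of this list in every library. On day 6 Sox1 went the other way from the sum, with 16 reads in Nons, 373 with Smarcc1.6 and 219 with Smarcc1.7. Lateral and cardiac mesoderm genes summed to 14.2 to 44.7 CPM in Nons and 15.6 to 38.6 in the hairpin libraries. Endoderm genes summed to 4.74 to 23.97 and 3.72 to 11.1, with Ttr at 0 in all Nons libraries. By the same fit 2 of 6 tested fibroblast and smooth muscle genes, 1 of 4 neuroectoderm genes and 1 of 3 endothelial genes were higher, 1 of 3 endoderm genes and 1 of 2 lateral and cardiac mesoderm genes were lower, and 0 of 4 trophoblast genes passed (3 at an unadjusted p under 0.05). The part of these lists in the levels of the BMP genes was not tested.

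Around the 10 genes, 56 other genes of the pathway were listed by role and 36 were tested. Knockdown lowered 5 and raised none (limma, against 4.77% lower and 6.88% higher over all tested genes), and 13 of 36 had an unadjusted p under 0.05, against 28.1%. The differences had a median of -0.16, against -0.01 over all tested genes. Smad1, a signal carrier of the pathway, was lower in 8 of 8 comparisons, at 3.02, 3.74, 4.34 and 4.47 in Nons, 2.27, 2.64, 3.78 and 3.89 with Smarcc1.6 and 2.48, 3.03, 3.65 and 3.90 with Smarcc1.7 (-0.69 ± 0.10, adjusted p = 0.00353). The libraries of the 2 hairpins lay below Nons on every day, and the call held without each library and each day in turn. Fst, which encodes the secreted antagonist follistatin, was at 1.77, 4.08, 5.30 and 6.15 in Nons, 1.10, 2.08, 2.12 and 4.12 with Smarcc1.6 and 1.23, 2.81, 1.72 and 2.66 with Smarcc1.7 (-2.09 ± 0.39, adjusted p = 0.00743). It held in 15 of 16 such fits and not without day 6 (adjusted p = 0.0638).

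The other 3 calls were less stable. Gata2, a BMP-responsive transcription factor, was at -0.57 ± 0.12 (adjusted p = 0.0156) and passed in 11 of 16 fits. It was lost without day 5, 6 or 7 and without Nons day 5 or Nons day 6. The secreted antagonist Nbl1 was at -0.60 ± 0.16 (adjusted p = 0.0344) and passed in 8 of 16. It was lost without day 5 or 6, without Nons day 4, 5 or 6, without Smarcc1.6 day 5 or 6 and without Smarcc1.7 day 5. The decoy receptor Bambi was at -0.46 ± 0.13 (adjusted p = 0.0459) and passed in 2 of 16, without day 4 and without Nons day 4. It also missed with no filter (adjusted p = 0.0505), after centring on the autosomal median (0.0520) and with no trend (0.0527). Leaving out day 4, or Nons day 4 alone, gave 11 pathway genes in place of 5, and leaving out day 6 gave 1, Smad1. The shares of all tested genes called in those fits are not given here, so these counts are not read as a result about the pathway. Smad1 and Fst were called with each hairpin, Bambi and Nbl1 with Smarcc1.6 and Gata2 with Smarcc1.7, and the hairpins were not shown to differ at any gene.

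**Figure D4:**
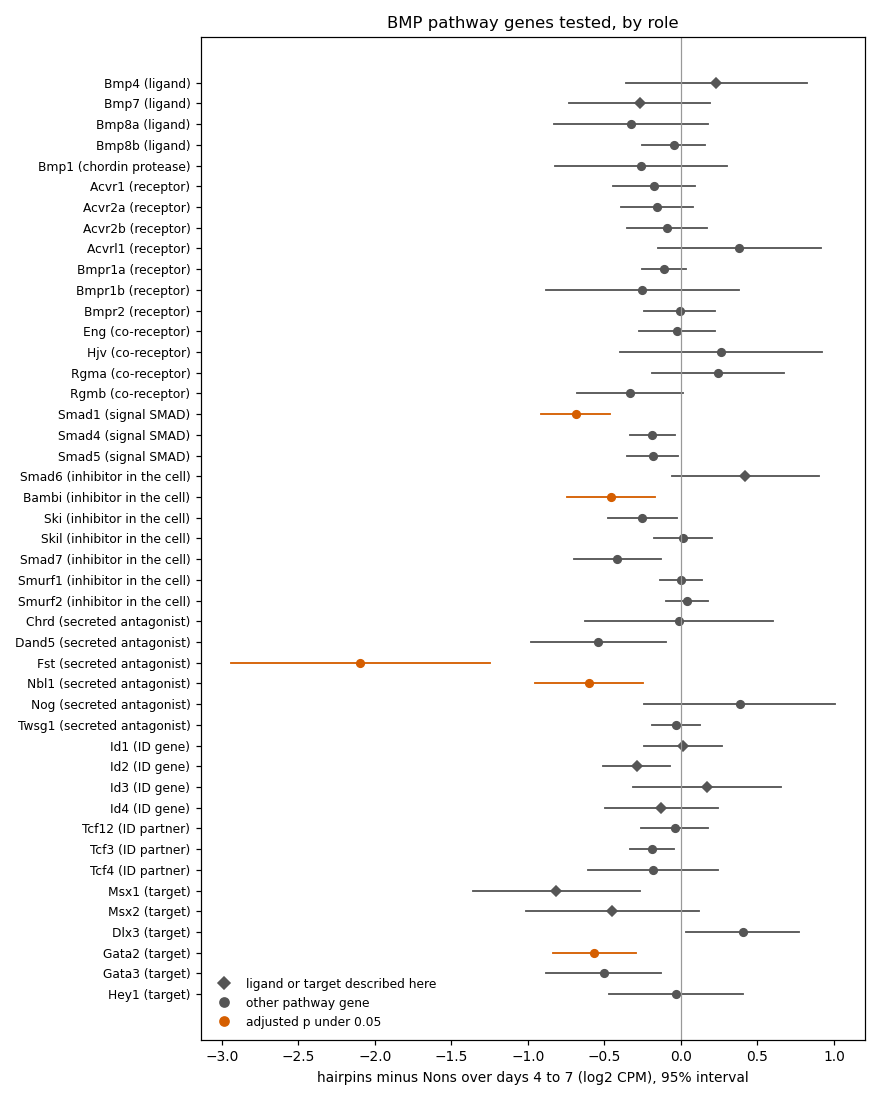
Fitted difference of the hairpin libraries from Nons over days 4 to 7 (log2 CPM, points, with 95% intervals as lines) for the 9 tested ligands and targets (diamonds) and the 36 other pathway genes (circles), ordered by role. The 5 genes in orange, Smad1, Bambi, Fst, Nbl1 and Gata2, passed an adjusted p of 0.05, and all 5 lie below 0.

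By role, none of 7 tested receptor genes and none of 4 co-receptor genes passed for knockdown (limma, 0 in each at an unadjusted p under 0.05). Of the 3 tested signal SMADs only Smad1 passed in that fit, and all 3 had an unadjusted p under 0.05. Over days 23 of the 36 rose and 4 fell, against 34.9% and 25.6% of all tested genes. All 3 signal SMADs rose, Smad1 by 0.53 ± 0.06 per day (adjusted p = 2.47e-05). Of the 6 tested secreted antagonists 5 rose, among them noggin (Nog, 1.67 ± 0.36 per day, adjusted p = 0.00232) and Nbl1 (0.95 ± 0.07, adjusted p = 2.33e-06). Nog fell by 1.65 on the log2 scale from day 4 to day 5 (adjusted p = 0.00856) and rose by 6.00 from day 5 to day 7. Both steps depend on day 5 counts near the floor of 3 reads, at 7 in Nons, 5 with Smarcc1.6 and 3 with Smarcc1.7. Bmp1, a protease that cleaves the antagonist chordin, rose by 1.48 ± 0.17 per day (adjusted p = 3.18e-05). The receptors Bmpr1a (0.28 ± 0.04) and Bmpr2 (0.32 ± 0.05) rose, and of the E protein partners of the ID factors Tcf3 (0.13 ± 0.05) and Tcf12 (0.39 ± 0.06) rose. Bmp8a, the co-receptor Eng, the inhibitor Skil and the target Hey1 fell.

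The genes most alike in how the 3 groups differed within a day were sought by Pearson's r over the 12 libraries. Each day's mean was subtracted first, which takes out the course over days. The values are a description across libraries that share days and depth. Each r given for a neighbour was among the 2 highest over all tested genes, so high values come with the choice and were not tested. Smad6 was nearest to the pluripotency factor Nanog (r = 0.96) and to Erbb3 (0.96). Msx2 was nearest to Klf3 (0.97) and Slk (0.97), and Msx1 to Sdhd (0.97) and Parp8 (0.94). Id1 was nearest to Cd3eap (0.97) and Eif2b1 (0.96), Id2 to Tnik (0.96) and Fn1 (0.96), Id3 to Gm5529 (0.97) and Metap2 (0.96), Id4 to Cops8 (0.95) and Tax1bp3 (0.94), and Bmp7 to Aldh5a1 (0.96) and Parm1 (0.94). Among the 36 pairs of the 9 tested genes Id1 and Id3 were closest on this measure (0.90), and Smad6 and Msx1 were opposed (-0.78).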

How the data were processed

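The authors made TruSeq RNA libraries from Zymo-extracted RNA, read 75 bp from both ends on a NextSeq500, and after trim_galore mapped the reads with tophat or hisat2 to mm10 with strain variants n-masked. The submitters' processing notes name bcl2fastq and TopHat2 2.0.12. Gene counts from Seqmonk were deposited as log2 CPM, with 0 reads written as 0.9 reads. Whether counting used the strand, and which annotation, is not given in the sources used here.

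Reads were recovered from the steps of the deposited log2 values, of which 100% of the low values were whole within 0.01 of a read. Depth ran from 13993440 to 63548092 mapped reads, at which 3 reads, taken as the floor, lie at -2.22 and -4.40 log2 CPM. Floors cover counting error only. Tested were genes whose log2 CPM averaged 0 or more across 12 libraries (13406 of 25965). Models were fitted with limma 3.58.1 in R 4.3.3 (trended eBayes, Benjamini-Hochberg over all tested genes, threshold 0.05). Knockdown and hairpins were fitted with day as a factor, change per day with a term for group, and the interaction as knockdown times day. Day0 entered no test. Gene positions came from the table and exon lengths and overlaps from GENCODE M21 (same build), with promoters from RefSeq. Named were all 10 genes, Smarcc1, pathway genes called for knockdown, and the 2 genes most like each tested member, which for Bmp4 are not reported here. On simulated counts for 13406 genes, knockdown recovered 92% of 200 genes changed by 0.5 and 100% of those changed by 1 log2 unit. Of the calls 2.65% and 6.54% were false. The simulation set a biological coefficient of variation of 0.1 and no differences between days, and its rates hold at that setting only. In the data the SE of the knockdown difference ran from 0.10 (Id2) to 0.27 (Bmp4) among the tested genes described here. The genes and lists were chosen with earlier results of these data known. Python 3.11.15, numpy 2.4.6, pandas 2.3.3 and matplotlib 3.10.9 were used.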

Additional observations from a re-analysis of the deposited data

Results flagged for a closer look

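Within a group the 4 libraries are 4 days, so a library far from the others is a day far from the others. Of 30 sets of 4 libraries (10 genes in 3 groups) 5 had such a library by Dixon's test. The test's chance rate of 1 in 20, or 1.5 of 30, holds for independent draws from 1 distribution. Successive days of genes that change over time are not such draws, so the 5 cannot be weighed against that rate. Id3 was far below its other days on day 7, at a log2 CPM of 5.09 in Smarcc1.6 and 3.68 in Smarcc1.7. Msx2 was far above its other days on day 7, at 3.19 in Smarcc1.6 and 3.12 in Smarcc1.7. Smad6 was far above on day 4 in Smarcc1.6, at 4.52.

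Both hairpins lay above Nons on day 4 and below it on day 7 for 2 genes. Bmp4 was above Nons by a mean of 1.10 on day 4 and at -1.01 on day 7. Msx2 was above Nons by 0.90 on day 4 and at -1.04 on day 7. The difference between those days has 1 Nons library behind each and was not tested itself. The linear interaction with day, which left curved courses in its error, did not pass for either gene.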

How the results depend on the processing

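For the named genes 617 values were recomputed under other settings: 531 kept their direction and their side of the threshold, 55 lost a call, 9 gained one and 22 changed sign. Leaving out single libraries or days gave 0 to 1 of the 9 genes called for knockdown, 0 to 1 for Smarcc1.6, 0 to 1 for Smarcc1.7, and 1 to 11 pathway genes in place of 5. Shares called over all tested genes are not given for the settings of this section. Such omissions moved the knockdown difference of Bmp4 from -0.056 to 0.65, of Id1 from -0.052 to 0.095 and of Id3 from -0.012 to 0.32, and the change per day of Bmp4 from -0.75 to 0.77, of Msx1 from -0.58 to 0.26 and of Smad6 from -0.43 to 0.24. With Smarcc1.7 and Nons only, Id1 was at -0.12 and Id3 at -0.062. Centring on the autosomal median, which ran from 4.41 to 4.68, put the change per day of Bmp4 at -0.039. Nons libraries alone (4 in place of 12) put that of Smad6 at 0.098 and called 3 genes in place of 6. With no filter 1 of the 9 genes, Msx1, was called for knockdown. Pathway calls for knockdown were 0 with no term for day, 0 with Smarcc1.6 and Nons only and 0 with Smarcc1.7 and Nons only, and Smarcc1 itself did not pass in these 3 (adjusted p = 0.388, 0.0532 and 0.0538). The first leaves the differences between days in the error, and the other settings have 8 libraries in place of 12. Day is the block here, since the labels number no replicates. Depth limits Bmp2 and Id4 most.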
